A study of Rattus norvegicus with 6 samples.

Results

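The genes described here are 41 cell cycle and mitosis genes, listed by symbol, and read in 6 libraries of cultured rat oligodendrocyte precursor cells. Of the 41, 39 had a row in a table of 32662 genes, namely 17 of 18 genes of the G1 to S phase transition and 22 of 23 genes of G2 phase and mitosis. No row carried the symbols Ccnb2 and E2f1, which were not analysed here. Rows were matched to the list by symbol alone and by no measured value. The list itself was chosen with earlier results of these data known. All 39 reached 1 FPKM in 3 or more libraries and so entered the test, as did 10766 genes in all. FPKM are fragment levels corrected for gene length and library size, so that levels of different genes can be set side by side.

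Oligodendrocyte precursor cells are the dividing glia that give rise to myelinating oligodendrocytes. They came from the cerebral cortex of Sprague-Dawley pups aged 1 to 2 days. Mixed glia were first grown with 20% fetal bovine serum, after which the cells that did not adhere were kept in medium with B27 (2%), FGF (10 ng/ml) and PDGF (10 ng/ml) during 4 to 5 days, per the labels' protocols. The 3 fibril libraries came from such cultures given fibrils preassembled from human alpha-synuclein, the protein that aggregates in oligodendrocytes in multiple system atrophy, for 72 hours. The 3 control libraries came from cultures labelled as control with no fibrils. The fibril dose, what the control cultures received, and the number and sex of the pups are not stated in the labels. Nor is it stated that the replicates are separate cultures or animals, so a p-value here measures only the spread between samples, which may be technical. In bulk RNA, fewer cells of a type and less RNA per cell cannot be told apart.

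PDGF and FGF drive precursor cells through G1 phase by inducing D-type cyclins, which with Cdk4 and Cdk6 phosphorylate the retinoblastoma protein and free E2F factors. E2F targets then load and fire the replication origins and make the nucleotides for S phase. A later wave of genes, held back by the DREAM complex and switched on by MuvB with B-Myb and FoxM1, builds the spindle and divides the cell. When a precursor differentiates it leaves the cycle, and both waves are repressed.

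Promoters were looked at because the G1/S and G2/M waves are known to use different elements. RefSeq promoters of the assembly GRCr8, each running from 250 bases before to 50 after the start site, were found for 30 of the 41 genes, 11 of G1/S and 19 of G2/M, with Ccnb2 among them. The 6 windows below run from 150 bases before to 30 after the start site, 5′ to 3′ on the strand of the gene. Capitals mark matches on either strand to the CCAAT box, to the cell cycle homology region (written as TTTGAA or TTTAAA), or to an E2F site (written as TTTCCCGC or TTTCGCGC or TTTGCCGC or TTTGGCGC). ATTGG is CCAAT on the other strand, and neighbouring matches can overlap. The G2/M windows are those of Ccnb1, the B-type cyclin of mitosis, at chr2:33655196-33655375 on the minus strand, of Cdk1, its kinase, at chr20:19265143-19265322 on the plus strand, and of Plk1, a kinase of mitotic entry, at chr1:186147508-186147687 on the plus strand. The G1/S windows are those of Mcm2 at chr4:122918065-122918244 on the minus strand, of Mcm5 at chr19:13488663-13488842 on the plus strand, both subunits of the replicative helicase, and of Gins2, which joins that helicase when an origin fires, at chr19:65548023-65548202 on the minus strand.
Ccnb1: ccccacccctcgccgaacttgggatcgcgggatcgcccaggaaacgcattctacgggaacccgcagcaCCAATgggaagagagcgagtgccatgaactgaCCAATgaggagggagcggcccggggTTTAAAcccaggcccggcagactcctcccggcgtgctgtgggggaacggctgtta
Cdk1: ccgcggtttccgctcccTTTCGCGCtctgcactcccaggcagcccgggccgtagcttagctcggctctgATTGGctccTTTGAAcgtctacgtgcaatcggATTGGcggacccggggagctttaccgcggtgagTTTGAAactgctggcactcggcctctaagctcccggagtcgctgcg
Plk1: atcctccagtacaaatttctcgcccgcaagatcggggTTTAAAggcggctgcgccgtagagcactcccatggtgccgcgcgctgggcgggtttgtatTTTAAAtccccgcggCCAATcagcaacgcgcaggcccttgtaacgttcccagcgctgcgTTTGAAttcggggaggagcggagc
Mcm2: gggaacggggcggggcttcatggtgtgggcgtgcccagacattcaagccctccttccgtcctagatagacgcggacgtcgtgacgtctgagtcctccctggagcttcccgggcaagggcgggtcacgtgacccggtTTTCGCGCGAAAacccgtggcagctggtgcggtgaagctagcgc
Mcm5: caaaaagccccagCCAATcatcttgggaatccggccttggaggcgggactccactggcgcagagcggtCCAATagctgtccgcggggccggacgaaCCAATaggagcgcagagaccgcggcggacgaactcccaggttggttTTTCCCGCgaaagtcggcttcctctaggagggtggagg
Gins2: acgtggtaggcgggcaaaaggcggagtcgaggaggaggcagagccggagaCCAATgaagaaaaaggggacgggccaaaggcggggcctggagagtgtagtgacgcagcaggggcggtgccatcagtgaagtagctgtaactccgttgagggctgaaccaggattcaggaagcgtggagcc

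The printed G2/M windows pair CCAAT boxes with a cell cycle homology region, whereas the Mcm2 and Mcm5 windows hold E2F sites and no such region. Over the whole 300-base promoters, 19 of 19 G2/M genes (100%) held a match to TTTGAA or TTTAAA, against 2 of 11 G1/S genes (18.2%), namely Ccne1 and Mcm2. The share was 28.2% over all 33469 promoters of the table and 18.7% over the 8838 promoters matched to tested genes. An E2F match stood in 7 of 11 G1/S promoters (63.6%) and in 1 of 19 G2/M promoters (5.26%), that of Cdk1, against 2.14% of all promoters. Both a CCAAT box and a homology region were present in 16 of 19 G2/M promoters and in 0 of 11 G1/S promoters, against 11.3% of all promoters. These are matches of letters in a fixed window and not measured sites of binding.

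Depth and cell identity were checked over all genes. The number of genes above 0 FPKM ranged from 11518 to 14219 and was lowest in replicate 1 of both groups. The mitochondrially encoded share of all FPKM was 80.3% in control replicate 1 and 75.6% in fibril replicate 1, against 12.0% to 40.1% in the other 4 libraries. Fibril replicate 3 had the lowest such share, 12.0%. Its total FPKM without mitochondrial genes was the highest, 493062 against 284253 to 466707 in the other libraries. Replicate 1 of both groups and fibril replicate 3 thus stood apart, and the members' median is also given without them. Of 8 precursor markers 7 had a row, all 7 were tested, and their summed level was 1464 to 2392 FPKM in the controls and 1180 to 1382 FPKM with fibrils. Of these 7, 6 had negative differences (median -0.65), none past the test, and 5 were lower with fibrils in 3 of 3 numbers, beside 2126 of 10766 genes tested. Pdgfra was present in each library, at 43.4 to 304 FPKM, with log2 differences of -0.13, -0.61 and -2.32 within numbers 1, 2 and 3. Of 10 oligodendrocyte markers 9 were tested and all 9 had a positive difference. Without a block 0 of the 9 were past the test, beside 0 of 10766 genes. With the replicate block, which rests on a pairing that the labels do not state, 3 of the 9 were past it, beside 0.111% of all genes. Of the 9, 7 had groups apart and higher with fibrils, beside 4.24% of all genes. The list summed to 336 to 841 FPKM in the controls and 2224 to 4090 FPKM with fibrils. Microglial markers (7 tested of 11 with a row) summed to 1.502 to 46.4 FPKM in the controls and 11.9 to 61.7 FPKM with fibrils, with 5 of 7 differences positive. Among them Cx3cr1 was at 0 in 5 of 6 libraries, whereas Cd14 was at 0 to 0.260 FPKM in the controls and 2.39 to 10.6 FPKM with fibrils. C1qa, C1qb and C1qc were at 10.3, 8.36 and 7.44 FPKM in control replicate 2, and at 2.93, 2.07 and 1.68 FPKM in fibril replicate 2. They were higher with fibrils in number 3, and their log2 differences over all libraries were -0.05, 0.15 and -0.04. Cd14 was the 1 of the 7 tested with groups apart and higher, beside 4.24% of all genes. Astrocyte markers (8 tested) summed to 156 to 204 FPKM and 95.3 to 241 FPKM, of which Aldoc was 181 FPKM in fibril replicate 3. Of the 8, 6 had negative differences, with a median of -1.38. Slc4a4, Slc1a3 and Gja1 had groups apart and lower with fibrils, beside 5.3% of all genes. Gfap had groups apart and higher, beside 4.24% of all genes. Neuron markers (7 tested) summed to 273 to 601 FPKM and 111 to 398 FPKM, with 0 of 7 differences positive. Of these 7, 3 had groups apart and lower with fibrils, beside 5.3% of all genes. No fibroblast, mural or endothelial marker passed the filter, and these lists summed to at most 0.282 FPKM in any library. The part of these cell types in the results below was not tested.

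Cell cycle genes were expressed in all 6 libraries. Over the control libraries Ccnd1, cyclin D1, was the most abundant member at 147.5 ± 41.6 FPKM (mean ± SD, n = 3), followed by Pcna, the sliding clamp of DNA polymerase, at 74.3 ± 8.68 FPKM. Ccnd2 at 64.5 ± 18.9, Cdk1 at 63.1 ± 14.7 and Ube2c at 61.9 ± 9.86 FPKM came next and did not differ beyond their spread. The least abundant members were Gins2 at 1.89 ± 0.0624 FPKM, Cdc6, which loads the helicase onto origins, at 3.03 ± 1.01 FPKM, and Cenpa, the histone that marks centromeres, at 3.58 ± 2.91 FPKM. Summed over the 39 genes, the level was 816.5, 1091 and 1036 FPKM in control replicates 1, 2 and 3, and 984, 717 and 1015 FPKM in fibril replicates 1, 2 and 3. The summed levels of the groups overlapped.

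**Figure D1:**
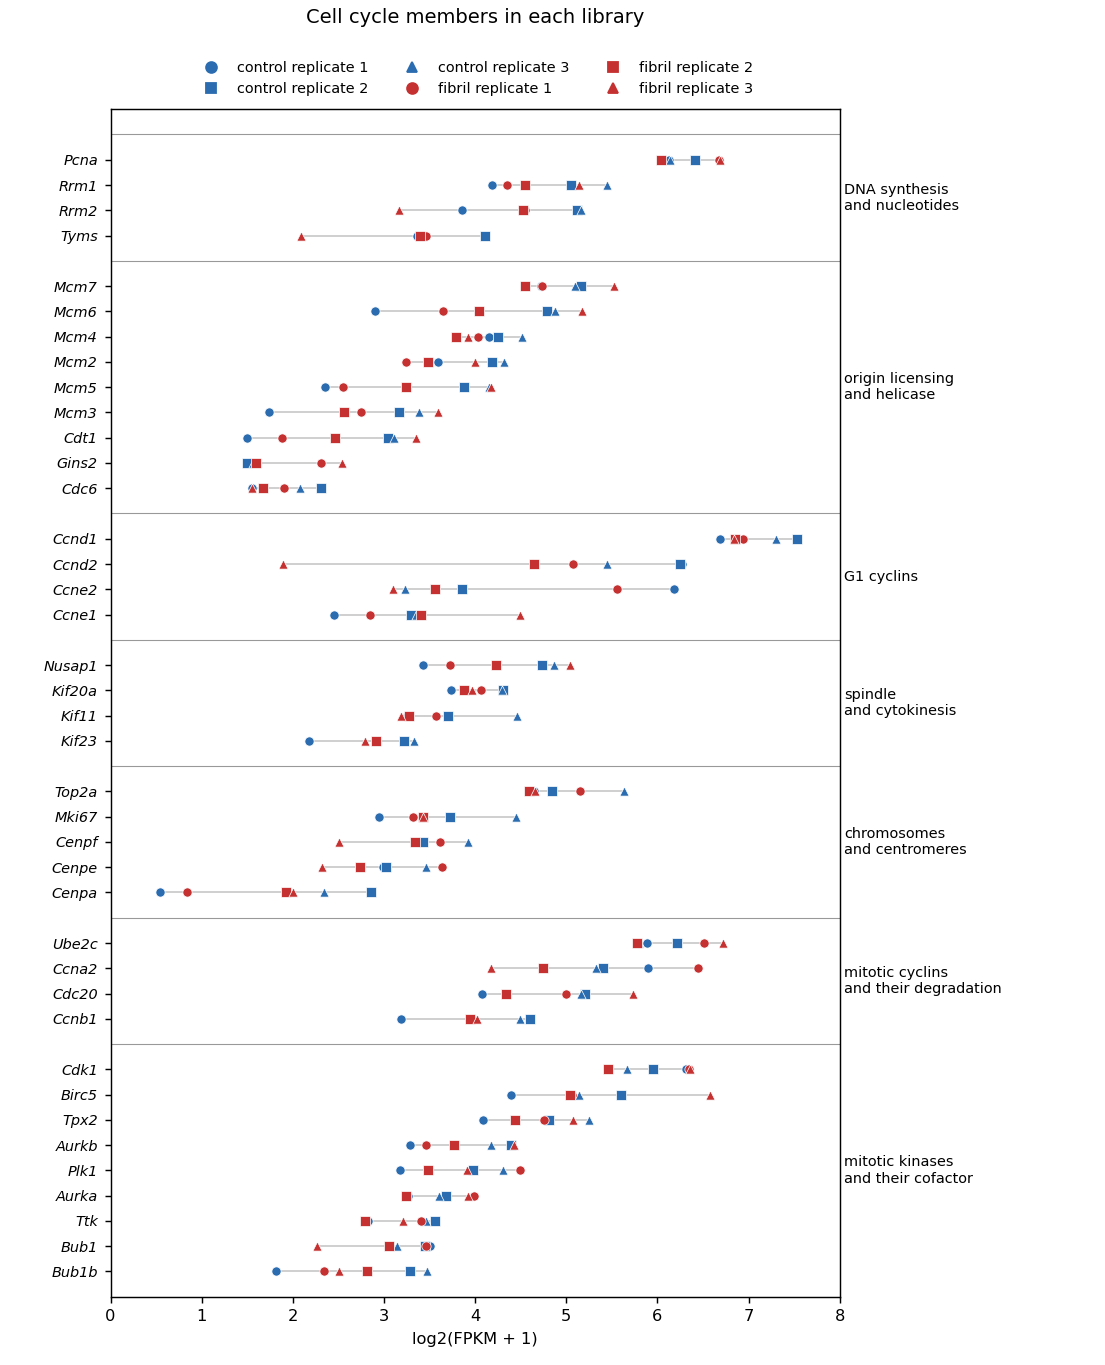
Level of each of the 39 cell cycle genes in each library, as log2(FPKM + 1) on the horizontal axis; blue points are the 3 control and red points the 3 fibril libraries, the shape gives the replicate number, the grey line spans the 6 values, and genes are grouped by role. Ccnd2 and Mcm4 lie lower and Gins2 higher in all 3 fibril libraries than in any control, and for the other genes red and blue points interleave.

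None of the 39 genes passed the test between fibril and control cultures. With limma on log2(FPKM + 1), 0 of 39 members were past an adjusted p of 0.05, beside 0 of 10766 genes (0.0%), and the members' adjusted p ran from 0.960 to 1.00. With the replicate number as a block, limma again called 0 of 39 members, the lowest adjusted p being 0.223 for Ccnd2, whereas 12 genes of all tested (0.111%) were called, all higher with fibrils. One member, Ccnd2, had an unadjusted p under 0.05 (0.0239 without a block), a share of 1 in 39 beside 433 genes or 4.02% of all tested. With 3 libraries a side, the smallest p that an exact permutation test can give is 0.1.

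The members' median log2 difference, fibril minus control, was -0.14, with 13 positive and 26 negative differences, beside a median of -0.04 over all genes tested. It was -0.21 for the 17 G1/S genes, of which 6 were positive, and -0.13 for the 22 G2/M genes, of which 7 were positive. With 1 library left out, the G1/S median ran from -0.51 without control replicate 1 to -0.0060 without control replicate 3. The G2/M median ran from -0.37 without control replicate 1 to 0.08 without control replicate 2, and was 0.05 without control replicate 3. The same medians taken within replicate numbers had an SD of 0.469 over the 3 numbers for all members, so the value lies well inside that spread. It became 0.03 without control replicate 2, 0.05 without control replicate 3, -0.40 without control replicate 1, -0.11 without fibril replicate 1, -0.17 without fibril replicate 3 and -0.42 with replicates 2 and 3 only. Scaling each library to the same total without mitochondrial genes moved the median of all genes to -0.30 and that of the members to -0.44, a difference of -0.13 between them.

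The 3 pairs of same-numbered libraries did not move alike. In replicate number 1, 34 of 39 members were higher in the fibril library, with a median log2 difference of 0.39, while 50.2% of all genes were higher. In number 2 only 2 of 39 were higher, Ccne1 and Gins2, with a median of -0.50, while 45.5% of all genes were higher. In number 3, 15 of 39 were higher, with a median of -0.32, beside 48.6% of all genes. The corresponding medians over all genes tested were 0.003, -0.04 and -0.05. Of the 22 G2/M genes, 21, 0 and 7 were higher in numbers 1, 2 and 3, with medians of 0.54, -0.45 and -0.37. Of the 17 G1/S genes, 13, 2 and 8 were higher, with medians of 0.25, -0.60 and -0.13. Control replicate 1 was the lowest of the 6 libraries for 19 members, and fibril replicate 3 was the highest for 14 and the lowest for 10. When libraries were scaled without mitochondrial genes, 32, 2 and 4 of 39 members were higher in numbers 1, 2 and 3, and 32, 2 and 14 lay above the median of all genes in the same number.

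**Figure D2:**
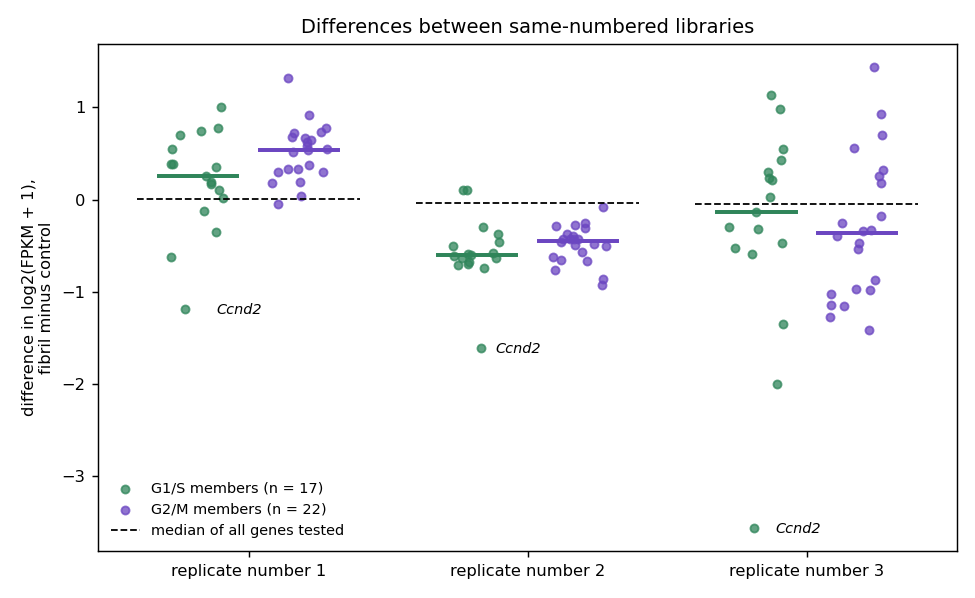
Difference in log2(FPKM + 1), fibril minus control, between libraries that share a replicate number; each point is a gene, green for the 17 G1/S and purple for the 22 G2/M genes, coloured bars are their medians and the dashed line is the median of all 10766 genes tested. Medians lie above the dashed line in number 1 and below it in numbers 2 and 3, and Ccnd2 is the lowest point in each number.

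Among the G1 cyclins, Ccnd2 differed most. Cyclin D2 (ENSRNOG00000057710, at 4:159674884-159697207 in the deposited table, whose build is not given in the sources used here) stood at 75.9, 74.9 and 42.7 FPKM in control replicates 1, 2 and 3, and at 32.8, 24.0 and 2.71 FPKM in the fibril libraries in the same order. Each fibril library was thus below every control, the lowest by far being fibril replicate 3. The log2 difference was -2.12 ± 0.777 (SE), with limma adjusted p values of 0.960 without a block and 0.223 with one. Within numbers 1, 2 and 3 it was -1.19, -1.61 and -3.56, the lowest of all 39 members each time. The fibril mean was 0.307 times the control mean, and the log2 difference lay between -2.72 and -1.13 under every alternative tried. Its rank by unadjusted p was 219 of all genes.

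For the other D-type and E-type cyclins the groups overlapped. Ccnd1, the main D-type cyclin by level, was at 102, 183 and 157 FPKM in the controls and at 122, 114 and 113 FPKM with fibrils, so that the fibril values fell within the control range (log2 difference -0.30 ± 0.422, SE). Ccnd3, a D-type cyclin outside the list, was at 5.20, 16.2 and 18.2 FPKM in the controls and 7.39, 13.2 and 19.3 FPKM with fibrils, again interleaved. Ccne1, cyclin E1, which activates Cdk2 at S phase entry, was at 4.48, 8.85 and 9.23 FPKM in the controls and 6.19, 9.60 and 21.4 FPKM with fibrils. It was higher with fibrils in 3 of 3 numbers, yet the groups overlapped and the log2 difference of 0.54 ± 0.513 (SE) did not pass the test (limma adjusted p = 0.960). Without fibril replicate 3 it was 0.089, and without control replicate 1 it was 0.25.

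Ccne2, cyclin E2, differed more between replicate numbers than between groups, at 71.8, 13.5 and 8.39 FPKM in the controls and 46.2, 10.8 and 7.57 FPKM with fibrils. Replicate 1 was high in both groups, and within numbers 1, 2 and 3 the log2 difference was -0.63, -0.29 and -0.13. It was -0.35 ± 0.862 (SE) without a block and -0.35 ± 0.291 with one; leaving out control replicate 1 alone, which unbalances the high replicate, gave 0.53. Ccne2 shares its locus in the table with Ints8, a subunit of the Integrator complex, which was at 13.6, 15.0 and 14.5 FPKM in the controls and 17.3, 15.3 and 12.5 FPKM with fibrils, so its values are uncertain.

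**Figure D3:**
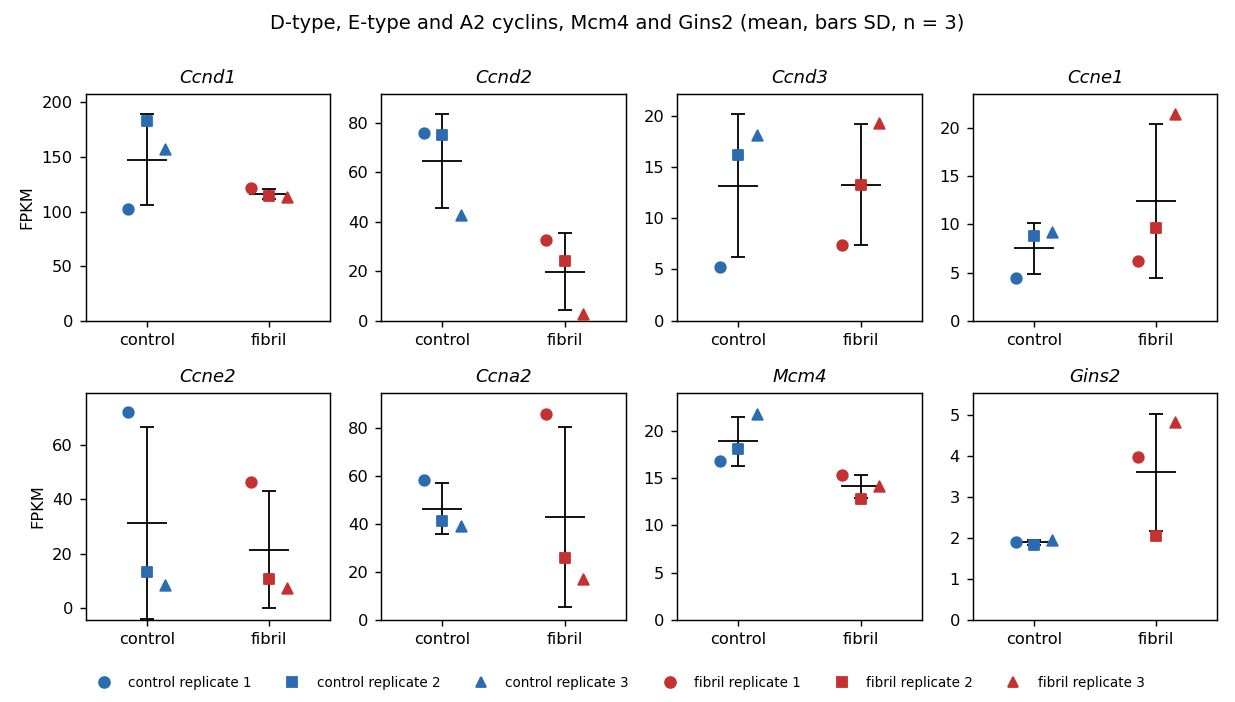
FPKM of the D-type and E-type cyclins, Ccna2, Mcm4 and Gins2 in the 3 control (blue) and 3 fibril (red) libraries; shapes give the replicate number, horizontal bars the mean and error bars the SD (n = 3), and each panel has its own axis. The groups are apart for Ccnd2, Mcm4 and Gins2, and replicate 1 stands high in both groups for Ccne2.

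Origin licensing and helicase genes went both ways, with 4 positive and 5 negative differences among 9. Mcm4, a subunit of the replicative helicase (ENSRNOG00000001833, 11:89511190-89524892 in the deposited table), was at 16.8, 18.025 and 21.8 FPKM in the controls and 15.3, 12.8 and 14.2 FPKM with fibrils. All fibril values were below all control values, although the gap between 15.3 and 16.8 FPKM was small beside the control SD of 2.62 (log2 difference -0.39 ± 0.352, SE). Gins2 (ENSRNOG00000017575, 19:54151047-54163608 in the deposited table) was at 1.90, 1.82 and 1.95 FPKM in the controls and 3.96, 2.03 and 4.81 FPKM with fibrils, all fibril values being above all control values. Its log2 difference was 0.62 ± 0.395 (SE), and its groups overlapped once libraries were scaled without mitochondrial genes. Ccnd2 and Mcm4 were the 2 members of 39 whose fibril values lay below all controls, beside 5.3% of all genes, and Gins2 was the 1 member above all controls, beside 4.24%. With that scaling 4 members lay below all controls, Cdk1 and Bub1 having joined Ccnd2 and Mcm4, beside 7.06% of all genes, and 0 lay above, beside 2.5%.

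Mcm2 was at 11.05, 17.2 and 18.9 FPKM in the controls and 8.45, 10.2 and 15.0 FPKM with fibrils. It was lower with fibrils in 3 of 3 numbers with overlapping groups, at a log2 difference of -0.46 ± 0.403 (SE). Mcm3 went the other way, with 2.35, 7.95 and 9.44 FPKM in the controls and 5.73, 4.90 and 11.1 FPKM with fibrils, a log2 difference of 0.20 that turned to -0.09 under scaling without mitochondrial genes. The 6 subunits of the helicase ring, Mcm2 to Mcm7, had log2 differences from -0.46 to 0.20. Mcm5, Mcm6, Mcm7, Cdc6 and Cdt1 had log2 differences between -0.27 and 0.10.

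Before scaling, genes of DNA synthesis and nucleotide supply split in fibril replicate 3. Pcna was at 69.0, 84.3 and 69.5 FPKM in the controls and 101, 64.9 and 102 FPKM with fibrils, a log2 difference of 0.24 that became -0.07 when libraries were scaled without mitochondrial genes. Rrm2, the regulatory subunit of ribonucleotide reductase, was at 13.4, 33.8 and 34.8 FPKM in the controls and 22.3, 22.1 and 7.99 FPKM with fibrils, and Tyms, thymidylate synthase, at 9.29, 16.2 and 9.77 FPKM and 10.03, 9.51 and 3.24 FPKM. Both were lowest in fibril replicate 3, the library in which Pcna was highest. Scaled without mitochondrial genes, Pcna was at 81.1 in fibril replicate 3, below 101 and 95.6 in control replicates 2 and 3. With that scaling 0 of the 4 genes of this role were higher with fibrils in number 3, against 1 of 4 before it. Without that scaling, the log2 differences of Rrm2 and Tyms were -0.63 ± 0.543 and -0.65 ± 0.486 (SE), neither past the test. They were -0.17 and -0.21 without fibril replicate 3. Rrm1, the catalytic subunit of the reductase, had a log2 difference of -0.21.

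Mitotic kinases and their cofactors gave 5 positive and 4 negative differences among 9 genes, from -0.44 for Bub1 to 0.51 for Birc5. Cdk1, which drives mitotic entry, was at 78.8, 60.9 and 49.6 FPKM in the controls and 80.6, 42.8 and 81.1 FPKM with fibrils. Fibril replicate 2 was the lowest library and fibril replicate 3 the highest, and the log2 difference of 0.08 turned to -0.16 with quantile normalization and to -0.23 with scaling without mitochondrial genes. Birc5, survivin of the chromosomal passenger complex, was at 20.1, 47.5 and 34.3 FPKM in the controls and 32.4, 31.8 and 94.5 FPKM with fibrils, at a log2 difference of 0.51 that was 0.0016 without fibril replicate 3. Aurka, a kinase of the spindle poles, was at 8.59, 11.8 and 11.2 FPKM in the controls and 14.8, 8.47 and 14.2 FPKM with fibrils, a log2 difference of 0.20 that turned to -0.09 under that scaling.

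Bub1 and Bub1b, kinases of the spindle checkpoint, had negative differences of -0.44 and -0.30. Bub1 was at 10.4, 9.96 and 7.82 FPKM in the controls and 9.98, 7.32 and 3.81 FPKM with fibrils, lower with fibrils in 3 of 3 numbers, by 0.05 on the log2 scale in number 1. Bub1b was at 2.51, 8.72 and 10.1 FPKM in the controls and 4.07, 6.04 and 4.68 FPKM with fibrils, within the control range. In all, 5 of 39 members were lower with fibrils in 3 of 3 numbers, Ccnd2, Ccne2, Mcm2, Mcm4 and Bub1, and 2 were higher in 3 of 3, Ccne1 and Gins2. Over all 10766 genes tested, 2126 were lower and 1815 higher in 3 of 3, so neither was more frequent among the members.

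Among the mitotic cyclins and the machinery that destroys them, the 4 genes measured showed no common direction. Ccnb1 was at 8.10, 23.3 and 21.5 FPKM in the controls and 14.6, 14.4 and 15.2 FPKM with fibrils, within the control range. Ccna2, cyclin A2 of S and G2 phase, was at 58.4, 41.3 and 39.1 FPKM in the controls and 86.0, 25.8 and 17.0 FPKM with fibrils, so that the fibril libraries held both its highest and its lowest values. Its locus in the table is shared with Exosc9, a subunit of the RNA exosome (54.6, 16.9 and 14.4 FPKM in the controls and 51.5, 16.8 and 24.5 FPKM with fibrils), and replicate 1 of each group was high for both genes, so the values of Ccna2 are uncertain. Cdc20, the activator of the anaphase-promoting complex, was at 15.9, 35.9 and 34.9 FPKM in the controls and 30.8, 19.3 and 52.0 FPKM with fibrils. Ube2c, the ubiquitin-conjugating enzyme of that complex, was at 58.3, 73.1 and 54.4 FPKM in the controls and 90.0, 53.9 and 104 FPKM with fibrils. For both, fibril replicate 3 was the highest library, and the log2 differences were 0.20 and 0.37, that of Cdc20 turning to -0.10 under scaling without mitochondrial genes.

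All 5 genes of chromosomes and centromeres and all 4 of the spindle and cytokinesis had negative differences, none past the test, the smallest being -0.010 for Nusap1 and -0.037 for Kif23. In number 1 all 9 were higher with fibrils, with medians of 0.37 and 0.33 for the 2 roles. Mki67, the proliferation antigen that coats mitotic chromosomes, was at 6.69, 12.2 and 20.9 FPKM in the controls and 8.96, 9.80 and 9.75 FPKM with fibrils. Top2a, the topoisomerase that untangles sister chromatids, was at 23.9, 27.6 and 48.7 FPKM in the controls and 34.5, 23.1 and 24.2 FPKM with fibrils. For both, control replicate 3 was the highest library and the log2 difference, -0.31 for Mki67 and -0.24 for Top2a, became 0.06 without it.

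Cenpf, a kinetochore protein, was at 9.79, 9.74 and 14.1 FPKM in the controls and 11.3, 9.13 and 4.69 FPKM with fibrils. Cenpa was at 0.458, 6.22 and 4.06 FPKM in the controls and 0.789, 2.80 and 2.997 FPKM with fibrils, replicate 1 being low in both groups. Kif11, the motor that pushes spindle poles apart, was at 8.502, 12.0 and 21.1 FPKM in the controls and 10.9, 8.69 and 8.09 FPKM with fibrils, at a log2 difference of -0.46 ± 0.426 (SE), the most negative of the 22 G2/M genes. Kif20a, a motor of cytokinesis, was at 12.3, 18.8 and 18.6 FPKM in the controls and 15.7, 13.7 and 14.6 FPKM with fibrils; it shares its locus in the table with Cdc23, so its values are uncertain.

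The members' differences in replicate number 3 ran with the length of the locus. In that number the 5 chromosome and centromere genes were all lower, with a median of -1.02, whereas 6 of 9 licensing and helicase genes were higher, with a median of 0.21. The opposite signs were lost with scaling without mitochondrial genes. Then 1 of the 9 licensing and helicase genes was higher in number 3. The medians were -0.52 for these 9 and -1.77 for the 5, beside -0.72 over all genes. Over all genes tested, the median difference in number 3 decreased across 4 equal classes of locus span, from 0.62 for the shortest through 0.24 and -0.23 to -0.80 for the longest. Members in the 3 shorter classes (11, 12 and 16 genes, with 0 in the longest) had medians of 0.43, -0.36 and -0.71. Across genes, Spearman's rho between span and difference was -0.149, -0.0126 and -0.423 over all genes in numbers 1, 2 and 3, and -0.195, 0.286 and -0.451 over the 39 members. These are descriptions across genes that share libraries, given without a p, and genes are not independent replicates. The spans of Ccna2, Ccne2 and Kif20a are those of loci shared with Exosc9, Ints8 and Cdc23, so they may exceed the genes themselves. The part of locus length in the members' values in number 3 was not tested.

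**Figure D4:**
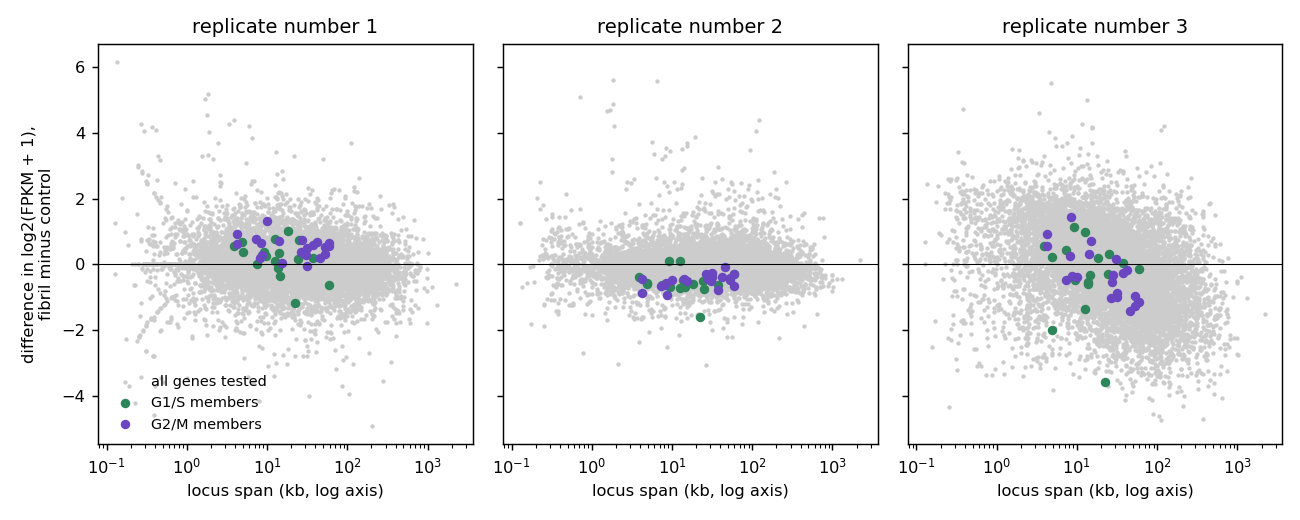
Difference in log2(FPKM + 1), fibril minus control, against the span of each gene's locus in the table (kb, log axis), in a panel for each replicate number; grey points are all 10766 genes tested, green and purple points the G1/S and G2/M genes. In number 3 the cloud slopes down, with a Spearman's rho of -0.423 over all genes and -0.451 over the members.

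Other cell cycle genes, listed by phase, were read in the same way. Of 38 further G1/S genes tested, 16 had positive differences with a median log2 difference of -0.04, and 0 passed limma's test with or without a block. They were higher with fibrils for 29, 0 and 22 of 38 in numbers 1, 2 and 3, the same order of numbers as for the members. The smallest unadjusted p values belonged to Atad2 (-0.79), Lig1 (-0.75) and Clspn (-0.54) among negative log2 differences, and to Gmnn (0.72), Gins4 (0.51) and Rfc4 (0.46) among positive ones. Gmnn, geminin, the inhibitor of relicensing, was at 17.0, 20.8 and 11.9 FPKM in the controls and 40.0, 15.5 and 32.0 FPKM with fibrils. Lig1 is the ligase that joins Okazaki fragments.

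Of 50 further G2/M genes tested, 17 had positive differences with a median of -0.07, and 45, 0 and 19 of 50 were higher with fibrils in numbers 1, 2 and 3. None was called, with or without a block, and 0 had an unadjusted limma p under 0.05. Kif18a, a kinesin that damps chromosome movement, had non-overlapping groups, at 4.01, 6.25 and 3.80 FPKM in the controls and 1.76, 3.25 and 2.86 FPKM with fibrils. It was the 1 gene of the 50 with all fibril values below all controls, beside 5.3% of all genes, and its groups overlapped when scaled without mitochondrial genes. Smc2 (-0.74) and Ncapg (-0.51), both of condensin, had the next smallest p values among negative log2 differences. Cks2 (0.62), Cdca5 (0.43) and Spc25 (0.25) were the positive ones named by the same rule.

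Regulators of the G1 restriction point and of the DREAM and MuvB complexes numbered 18, of which 4 had positive differences with a median of -0.33, and 0 were called. Rbl1, the pocket protein p107, was at 4.39, 4.93 and 3.99 FPKM in the controls and 3.29, 3.001 and 0.922 FPKM with fibrils. It was the 1 gene of the 18 with all fibril values below all controls, beside 5.3% of all genes. Rb1 had a log2 difference of -0.78, most of it in number 3, where it was -2.26. That of Cdk6 was -0.73, from values near the floor, 0.397, 1.70 and 2.12 FPKM in the controls and 0, 1.17 and 0.196 FPKM with fibrils. Both loci are in the longest class of span, whose median over all genes was -0.80 in number 3, and the part of span was not tested. E2f4, the repressive E2F of the DREAM complex, was at 13.9, 19.1 and 17.9 FPKM in the controls and 19.9, 19.5 and 21.96 FPKM with fibrils. It was the 1 gene of the 18 above all controls, beside 4.24% of all genes, but its groups overlapped when scaled without mitochondrial genes. With that scaling 4 of the 18 lay below all controls, Rb1, Lin54 and Tfdp2 having joined Rbl1, beside 7.06% of all genes. Cdk4, partner of the D-type cyclins, was at 112, 278 and 213 FPKM in the controls and 186, 274 and 522 FPKM with fibrils, a log2 difference of 0.67 ± 0.574 (SE). That of E2f6 was 0.12.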

How the data were processed

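Total RNA (RNeasy) was prepared with a SureSelect kit that keeps strand, per the labels' protocols, and sequenced on a MiSeq, per the series' own description. FastQC and Trimmomatic are named in the submitters' processing notes; which aligner, quantifier and genome build were used is not given in the sources used here. As deposited by the authors, the data are 1 table of FPKM, with 1 column per library, per the file headers, and all 6 value columns matched a sample (0 did not). FPKM are not counts, so fragment numbers are unknown and no count model was run. From low values, the worth of 1 fragment was estimated at 4.03 times that of control replicate 2 in control replicate 1 and 6.92 times in fibril replicate 1, and at 0.818 to 1.96 times elsewhere, so low values are least precise in replicate 1.

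Values were analysed as log2(FPKM + 1), which understates the change of low genes, for genes that reached 1 FPKM in 3 or more libraries. Fibril and control libraries were compared with limma 3.58.1 in R 4.3.3 (with a trend, two-sided, p adjusted by Benjamini-Hochberg over all genes tested, threshold 0.05), without a block. The fit was tested on simulated data. Same-numbered libraries deviated together from their group means across genes, with correlations of 0.747, 0.364 and 0.216 for numbers 1, 2 and 3, all above 0.1, so the numbers were treated as pairs in a second fit with the number as a block. The pairing comes from the numbers in the titles; the labels state none, and the crossed correlations between numbers 2 and 3 were higher (0.500 for control 3 against fibril 2, 0.433 for control 2 against fibril 3), which bears on every value given within these numbers. Groups were called not overlapping where all 3 fibril values lay on 1 side of all 3 control values. Scaled values set the FPKM of non-mitochondrial genes to the same total in each library.

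The members, the further gene lists and the markers were chosen with earlier results of these data known. Values in every library are given for Mki67, Top2a, Ccnb1, Cdk1, Ccnd1, Ccnd2, Ccne1, Mcm2 and Pcna in any case, for members whose groups do not overlap, and for the 2 largest positive and 2 largest negative differences in each role. Of the further cell cycle genes, up to 3 in each phase and direction with the smallest unadjusted p are named. Ccnd3, Ints8, Exosc9 and the markers named singly fall outside these rules and were chosen after their values were seen. Alternatives covered the filter, the pseudocount, the scaling, the block and each library left out.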

Additional observations from a re-analysis of the deposited data

How the results depend on the processing

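Under all 17 alternatives 0 members were past the threshold, and the medians over members, G1/S genes and G2/M genes moved by less than their SD over replicate numbers. Those SDs, 0.469, 0.429 and 0.550, are larger than the medians themselves, so this bound is wide and does not show stability. The members' median ran from -0.44 under scaling without mitochondrial genes to 0.05 without control replicate 3, a change of sign. With the replicate block, 12 genes of all tested were called higher in place of 0, 1 with the block and scaling without mitochondrial genes, and 13 higher and 2 lower with the block and quantile normalization; the replicate block changed no member's call. Leaving out 1 library gave 0 to 3 genes called higher, with 3 without fibril replicate 3. Scaling without mitochondrial genes changed the members with groups apart from 1 higher and 2 lower to 0 higher and 4 lower. Of 26 members given by library, 14 changed sign in no alternative. The block and the filters leave each log2 difference as it was, so those alternatives could not change a sign. Many of the 26 were also named for the size of their difference in these data, so the count is no measure of stability. Scaling without mitochondrial genes, with or without the block, gave log2 differences of -0.090 for Aurka, -0.10 for Cdc20, -0.23 for Cdk1, -0.089 for Mcm3 and -0.066 for Pcna. Quantile normalization, with or without the block, gave -0.0082 for Cdc20, -0.16 for Cdk1 and -0.023 for Pcna. Replicates 2 and 3 only gave -0.056 for Aurka, -0.15 for Cdc20 and -0.20 for Mcm3. With 1 library left out, log2 differences ran from -0.82 to 0.0091 for Bub1b, -1.08 to 0.052 for Ccna2, -0.57 to 0.14 for Ccnb1, -1.09 to 0.53 for Ccne2, -0.17 to 0.54 for Cdc20, -0.080 to 0.38 for Cdk1, -1.01 to 0.15 for Cenpa, -0.30 to 0.51 for Mcm3, -0.69 to 0.059 for Mki67 and -0.44 to 0.059 for Top2a. The cause was not tested. Fragment numbers are unknown, so the precision that depth gives each value cannot be stated.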
